A study of Rattus norvegicus with 15 samples.

Results

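The genes described here build cholesterol and fatty acids, or regulate the genes that do. A list of 34 gene symbols defined them, and a gene was followed through every probe set that the array annotation assigns to it alone. Of the 34 genes, 33 had at least 1 such probe set. They hold 53 of the 31042 non-control probe sets on the array, and 33 of its 14217 annotated genes. Hmgcs1, which makes the precursor of mevalonate, had none in the annotation used and has no value here. The list is one of gene names and uses no measured value, but it was drawn up with earlier results of these data known. For each gene the probe set that was brightest on average stands for it, and all 33 of these passed the filter on dim probe sets.

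Cells make cholesterol and fatty acids from acetyl-CoA. Transcription of the genes for both routes is driven by sterol regulatory element-binding proteins (SREBPs), the products of Srebf1 and Srebf2. The escort protein Scap carries SREBPs from the endoplasmic reticulum to the Golgi, where they are cleaved, and the Insig proteins hold them back when sterols are plentiful. The brain makes nearly all its own cholesterol, because plasma lipoproteins do not cross the blood-brain barrier. Glia supply much of it, and oligodendrocytes use large amounts for myelin. The subfornical organ (SFO) is a sensory circumventricular organ with fenestrated capillaries, placed where circulating hormones and osmolality reach neurons that govern thirst and appetite.

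RNA of the SFO from male Sprague Dawley rats, 10 to 12 weeks old, was measured on 15 Affymetrix arrays in 3 groups: controls, water-deprived animals and food-deprived animals. Each group has 5 arrays, and each array carries the pooled SFO RNA of 5 animals, so that 25 animals stand behind a group. Food deprivation lasted 48 h per the labels, which give no treatment protocol for controls or water-deprived animals, and how long water was withheld is not given in the sources used here. Design text of the series, taken at its word, has food withheld for 48 h in all 3 conditions. The labels name no genetic change. A pool of a whole small organ is a mixture of cell types, and in such bulk RNA fewer cells of a type and less RNA per cell cannot be told apart.

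Several arrays stood apart before any comparison was made. The 5′ to 3′ signal ratio of the Actb and Gapdh control probe sets, a measure of RNA integrity and of the length of the amplified product, split the arrays into a high set of 7 and a low set of 8 at a log2 ratio of -1. The log2 ratio ran from -1.67 to -1.24 in control arrays and from -0.864 to -0.711 in food arrays. The low set was not uniform: water 3 had the lowest ratio of all, -2.81, against -1.28 in water 4 and -1.37 in water 5. All control arrays were low and all food arrays high, while water arrays 1 and 2 were high and water arrays 3 to 5 low. Set and group therefore cannot be told apart between control and food arrays alone, and a fit with the set as a term reaches that comparison only through the water arrays. Markers of the SFO were present, with 6 of 7 past the filter (Agtr1a, Scn7a, Casr, Calcr, Npr1 and Etv1, but not Avpr1a). The summed signal of the 7 ran from 946.08 to 2121.8 over control arrays, 959.03 to 2155.6 over water arrays and 1122.7 to 1318.9 over food arrays. Markers of adjoining tissue varied widely: the summed signal of the 12 choroid plexus and ependyma markers ran from 4311.2 to 16015 over control arrays, 2879.8 to 21226 over water arrays and 7717.7 to 16273 over food arrays. The 7 measured markers of the neighbouring hypothalamus, Avp, Oxt and Pmch among them, summed to 1022.7 to 3709.9 in control, 339.41 to 3651.8 in water and 266.27 to 297.25 in food arrays.

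The proximal promoters show which binding letters these genes share. RefSeq (GRCr8) gave 29 promoters for 27 of the 34 genes, each 300 bases long, from 250 before the transcription start to 50 after it. Pmvk, Fdft1, Sqle, Stard4, Acaca, Fasn and Elovl6 were not matched. CCAAT, the box bound by NF-Y, a usual partner of SREBPs, was found on either strand in 21 of 29 promoters (72.4%), against 37.5% of all 33469 promoters in the table and 38.0% of the 21851 of protein-coding genes. GGGCGG, the GC box bound by Sp1, was found in 24 of 29 (82.8%), against 33.1% of all and 41.8% of coding promoters. CACGTG, an E-box, was found in 3 of 29 (10.3%), against 6.42% of all. The sterol response element was searched as TCACNCCAC, found in 0 of 29 and in 1.12% of all promoters. A longer form of it, which also matches those letters, was in 0 of 29 and in 0.125% of all. The other motifs do not contain one another. A match describes letters in this window and shows no binding. Only exact matches were sought, so 0 of 29 does not show that sterol response elements with other letters, or outside the window, are absent.

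Promoters are printed for the 4 genes whose arrays did not overlap between groups in at least 1 comparison: Srebf1, Mvk, Dhcr7 and Insig2. Each runs 5′ to 3′ on the strand of its gene, in lower case, with CCAAT (or its reverse complement ATTGG) and GGGCGG (or CCGCCC) in capitals. Srebf1 has 2 annotated starts.
Srebf1, chr10:45529115-45529414, minus strand: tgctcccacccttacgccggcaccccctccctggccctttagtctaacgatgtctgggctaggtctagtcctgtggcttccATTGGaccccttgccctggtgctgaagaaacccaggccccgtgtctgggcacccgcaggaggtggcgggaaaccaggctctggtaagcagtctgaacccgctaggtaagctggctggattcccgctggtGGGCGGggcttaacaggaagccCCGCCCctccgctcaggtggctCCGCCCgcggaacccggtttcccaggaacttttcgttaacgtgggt
Srebf1, chr10:45518961-45519260, minus strand: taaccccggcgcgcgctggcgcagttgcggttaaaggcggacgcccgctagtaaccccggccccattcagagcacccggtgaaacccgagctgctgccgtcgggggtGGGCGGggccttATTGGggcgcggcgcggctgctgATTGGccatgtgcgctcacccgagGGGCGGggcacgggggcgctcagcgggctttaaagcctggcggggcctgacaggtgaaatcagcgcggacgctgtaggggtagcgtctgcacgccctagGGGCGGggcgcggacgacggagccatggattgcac
Mvk, chr12:47819454-47819753, minus strand: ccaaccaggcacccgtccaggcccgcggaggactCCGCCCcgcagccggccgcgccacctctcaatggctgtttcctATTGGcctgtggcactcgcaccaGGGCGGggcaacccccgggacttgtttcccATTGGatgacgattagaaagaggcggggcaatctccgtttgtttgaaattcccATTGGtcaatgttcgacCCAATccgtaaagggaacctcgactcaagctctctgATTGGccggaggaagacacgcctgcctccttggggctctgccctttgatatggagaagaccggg
Dhcr7, chr1:208444184-208444483, plus strand: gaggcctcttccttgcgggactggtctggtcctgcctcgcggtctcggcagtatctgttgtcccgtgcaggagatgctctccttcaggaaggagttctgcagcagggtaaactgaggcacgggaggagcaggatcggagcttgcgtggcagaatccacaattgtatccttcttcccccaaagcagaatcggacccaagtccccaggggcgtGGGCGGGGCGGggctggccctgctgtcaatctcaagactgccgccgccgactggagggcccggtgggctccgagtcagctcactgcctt
Insig2, chr13:35040049-35040348, minus strand: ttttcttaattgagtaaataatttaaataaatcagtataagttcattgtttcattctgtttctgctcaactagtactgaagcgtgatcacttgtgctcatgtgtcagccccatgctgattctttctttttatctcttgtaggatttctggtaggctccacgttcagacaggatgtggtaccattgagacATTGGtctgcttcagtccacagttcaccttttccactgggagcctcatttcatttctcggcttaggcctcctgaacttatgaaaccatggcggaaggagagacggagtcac
The Mvk promoter has 5 CCAAT boxes and 2 GC boxes. That of Dhcr7 has 0 CCAAT boxes and 2 overlapping GC boxes, and that of Insig2 has 1 CCAAT box and 0 GC boxes. The Srebf1 promoters hold 1 and 2 CCAAT boxes and 3 GC boxes each.

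In its brightest probe set, no lipid synthesis gene passed the test in any comparison between groups, while dimmer probe sets of Elovl5, Stard4, Insig2 and Sc5d passed in food against control. The test was limma's moderated test on log2(signal + 16), two-sided, with Benjamini-Hochberg adjustment over all 21729 probe sets tested and a threshold of 0.05. Differences are on that log2 scale, which understates changes of dim probe sets. For the brightest probe sets, food deprivation against control gave 0 of 33 genes (8.53% of all probe sets passed, 1854 in number) and 6 at an unadjusted p under 0.05 (26.3% of all). Water deprivation against control gave 0 of 33 (0.0046% of all, 1 probe set) and 3 at an unadjusted p under 0.05 (6.5% of all). Food against water deprivation gave 0 of 33 (0.152% of all, 33 probe sets) and 1 at an unadjusted p under 0.05 (15.8% of all).

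**Figure D1:**
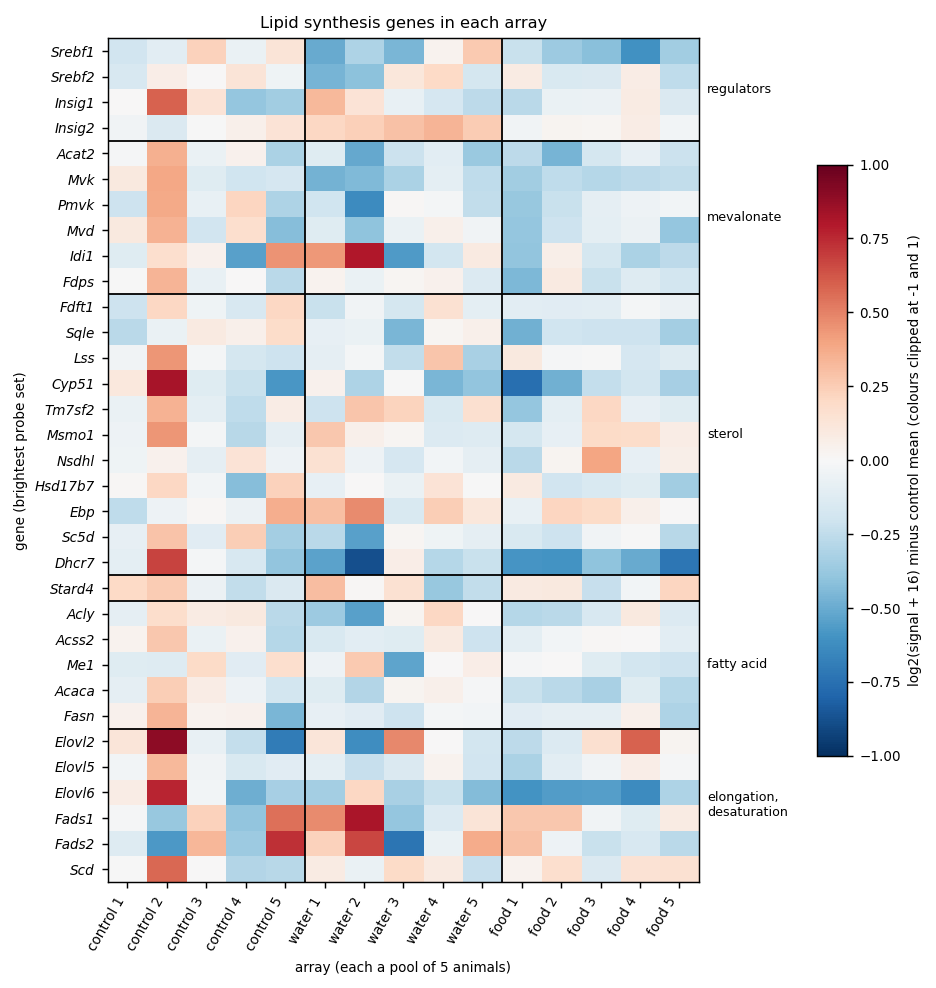
Each row is 1 of 33 genes, ordered by role, and each column 1 of 15 arrays; colour gives log2(signal + 16) minus the mean of the 5 control arrays, clipped at -1 and 1. Control 2 is the reddest control column, with the highest control value for 22 of 33 genes, and the food columns are mostly blue for Dhcr7, Srebf1, Elovl6 and Mvk.

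The differences after food deprivation lay mostly below 0. Of 33 genes, 25 were below control, with a median log2 difference of -0.10 and a range of -0.56 to 0.092, while 43.2% of all probe sets lay below 0 with a median of 0.046. Median centring moved the food difference of all probe sets by -0.101 and put 33 of 33 genes below 0, and quantile normalization put 27 below 0. Measured against the median of all probe sets, 29 genes were lower with the deposited scaling, 27 with quantile normalization and 29 with median centring. The 95% interval lay within 1.5-fold in either direction for 26 of 33 genes, against 58.3% of all probe sets, so that larger changes lay outside the interval of those genes. The arrays of the groups did not overlap for 3 genes, all lower in food arrays, while 15.4% of all probe sets had groups that did not overlap.

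Among the regulators, Srebf1, which encodes the SREBP that chiefly drives fatty acid genes, had the largest food difference. Its log2 values were 9.04, 9.13, 9.47, 9.17 and 9.37 in control arrays 1 to 5, 8.73, 8.93, 8.78, 9.27 and 9.50 in water arrays 1 to 5, and 9.01, 8.87, 8.82, 8.63 and 8.89 in food arrays 1 to 5. All 5 food arrays lay below all 5 control arrays, and the water arrays spanned both. Food deprivation was 0.39 lower than control (-0.39, SE 0.14, 1.31-fold lower), with a limma adjusted p of 0.0904 that missed the threshold. A dimmer probe set of Srebf1 differed the other way, by 0.35 (SE 0.24, limma adjusted p = 0.376). With the array set as a term, the difference of the brightest probe set was -0.04 (SE 0.22).

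Srebf2 encodes the SREBP that chiefly drives cholesterol genes. Its log2 values were 7.87, 8.10, 8.04, 8.16 and 7.99 in control arrays, 7.57, 7.62, 8.14, 8.23 and 7.85 in water arrays, and 8.11, 7.88, 7.89, 8.11 and 7.78 in food arrays. The groups overlapped throughout, and the lowest values were those of water arrays 1 and 2. Food against control was -0.08 (SE 0.13) and water against control -0.15 (SE 0.13). Insig1, itself a target of SREBPs, was 8.07, 8.65, 8.20, 7.68 and 7.72 in control arrays, 8.39, 8.20, 7.99, 7.90 and 7.80 in water arrays, and 7.79, 8.00, 8.01, 8.15 and 7.92 in food arrays. Its spread over control arrays (SD 0.40, n = 5) was far wider than its food difference of -0.09 (SE 0.17).

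Of the steps from acetyl-CoA to farnesyl pyrophosphate, 6 of 6 genes lay below control after food deprivation, with a median of -0.22. Mvk, mevalonate kinase, was 6.90, 7.19, 6.68, 6.60 and 6.64 in control arrays, 6.33, 6.36, 6.48, 6.71 and 6.55 in water arrays, and 6.46, 6.55, 6.52, 6.54 and 6.56 in food arrays. Every food array was below every control array, with control 4 nearest to them and control 2 farthest. The food difference was -0.28 (SE 0.12, limma adjusted p = 0.139), -0.18 without control 2 and -0.05 with the array set as a term. A dimmer Mvk probe set was higher by 0.43 (SE 0.15, limma adjusted p = 0.0747), so the probe sets of this gene disagree. Acat2, which joins acetyl-CoA units, was -0.24 (SE 0.12), Mvd, the decarboxylase, -0.23 (SE 0.14), Idi1, the isomerase, -0.22 (SE 0.22), Fdps, the farnesyl pyrophosphate synthase, -0.18 (SE 0.11) and Pmvk, the second kinase, -0.15 (SE 0.15). None of these passed.

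Of the 11 genes from squalene to cholesterol, 8 were below control after food deprivation, with a median of -0.10. Dhcr7, the reductase that completes cholesterol, had the largest difference of all 33 genes. Its log2 values were 7.85, 8.62, 7.92, 7.78 and 7.55 in control arrays, 7.41, 7.06, 8.01, 7.66 and 7.72 in water arrays, and 7.35, 7.35, 7.54, 7.44 and 7.22 in food arrays. The highest food array lay just under the lowest control array, control 2 stood above the other controls, and water arrays 1 and 2 were lower than water arrays 3 to 5. Group means were 7.94 ± 0.40, 7.57 ± 0.36 and 7.38 ± 0.12 (SD, n = 5), and food deprivation was lower than control by 1.48-fold (-0.56, SE 0.19, 95% interval -0.96 to -0.17), which missed the threshold at a limma adjusted p of 0.0711. The call was sensitive to single water arrays, which enter through the shared spread: without water 2 the limma adjusted p was 0.0436 and without water 3 it was 0.0435. With the array set as a term the difference was -0.0013 (SE 0.28), and between the high and low water arrays Dhcr7 differed by -0.56 (SE 0.23, limma adjusted p = 0.115).

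Sqle, squalene epoxidase, an oxygen-using control point of the pathway, was 8.33, 8.53, 8.69, 8.65 and 8.78 in control arrays and 8.12, 8.40, 8.39, 8.39 and 8.25 in food arrays. Control 1 was the single control array inside the food range. The difference was -0.29 (SE 0.11, limma adjusted p = 0.118), and it was -0.34 with the array set as a term. Cyp51, the lanosterol demethylase, was 9.10, 9.81, 8.87, 8.77 and 8.41 in control arrays and 8.24, 8.51, 8.75, 8.81 and 8.66 in food arrays, a difference of -0.40 (SE 0.20) in which control 2 stood highest and controls 4 and 5 lay within the food range. Without control 2 the Cyp51 difference was -0.19. The other 8 sterol genes (Fdft1, Lss, Tm7sf2, Msmo1, Nsdhl, Hsd17b7, Ebp and Sc5d) lay between -0.14 for Hsd17b7 and 0.077 for Ebp. Stard4, which moves cholesterol between membranes, was 0.028 (SE 0.14).

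**Figure D2:**
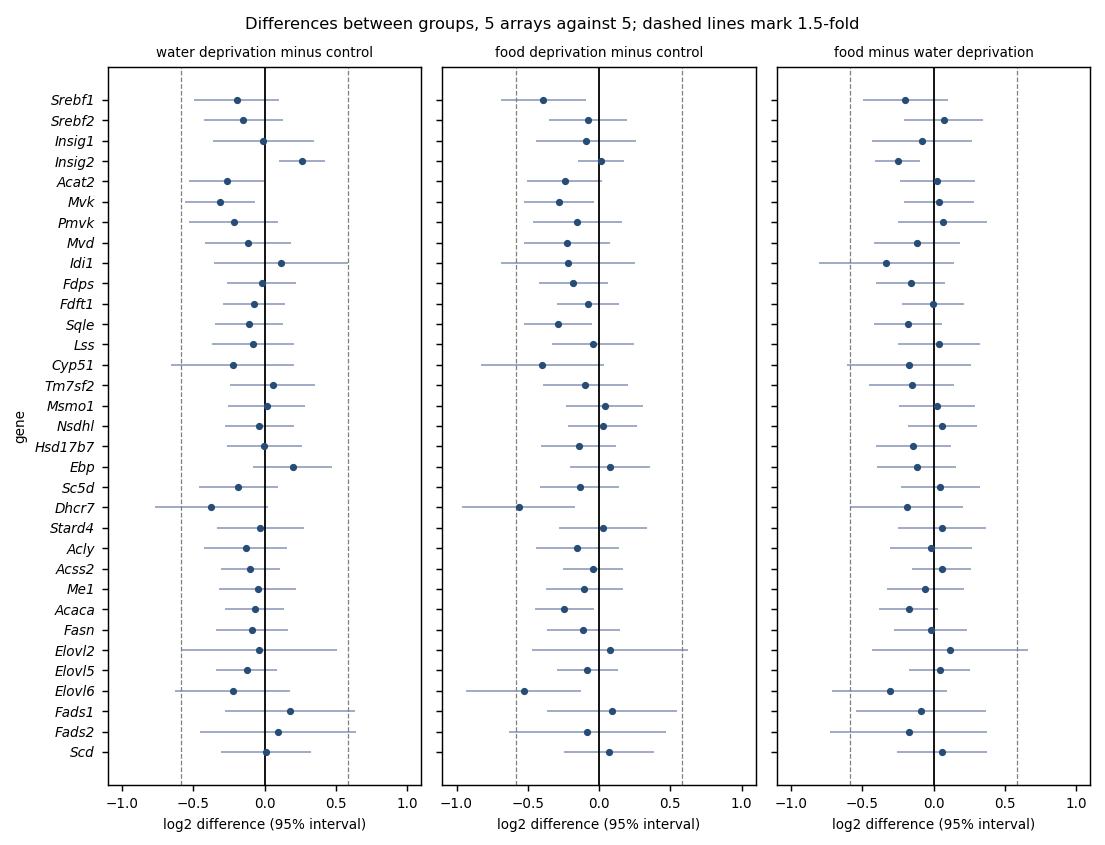
Points are log2 differences between group means for 33 genes (5 arrays against 5), bars are 95% intervals, and dashed lines mark 1.5-fold. Most intervals span 0; Dhcr7 and Elovl6 reach farthest left for food deprivation minus control, and Insig2 lies clear of 0 on opposite sides in the left and right panels.

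All 5 genes of fatty acid synthesis were below control after food deprivation, with a median of -0.11. Acaca, the acetyl-CoA carboxylase that commits carbon to fatty acids, was 8.18, 8.52, 8.35, 8.22 and 8.09 in control arrays and 8.05, 8.00, 7.95, 8.15 and 7.99 in food arrays. Food 4 alone lay above the lowest control array. The difference was -0.24 (SE 0.098, limma adjusted p = 0.124), and -0.01 with the array set as a term. Fasn, fatty acid synthase, differed by -0.11 (SE 0.12), Acly, which releases acetyl-CoA from citrate, by -0.15 (SE 0.14), Me1, a source of NADPH, by -0.10 (SE 0.13) and Acss2, which activates acetate, by -0.04 (SE 0.098).

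The 6 genes of chain elongation and desaturation split evenly, 3 below and 3 above control, with a median of -0.0049. Elovl6, which lengthens palmitate, was 7.37, 8.05, 7.26, 6.80 and 6.96 in control arrays, 6.95, 7.49, 6.96, 7.07 and 6.85 in water arrays, and 6.69, 6.73, 6.73, 6.66 and 6.98 in food arrays. Food arrays 1 to 4 lay below every control array, and food 5 was level with the lower controls. The food difference was -0.53 (SE 0.19, 1.44-fold lower, limma adjusted p = 0.0916), -0.79 with the array set as a term, -0.34 without control 2 (limma adjusted p = 0.152) and -0.15 in its other probe set. Scd, the desaturase of saturated fatty acids, was 0.072 (SE 0.15), Fads1 0.092 (SE 0.21), Fads2 -0.08 (SE 0.26), Elovl2 0.076 (SE 0.26) and Elovl5 -0.08 (SE 0.10). Over the whole list, oligodendrocyte and myelin markers lay on the other side of 0 from most synthesis genes: 19 of 23 were above control after food deprivation, median 0.52, with 0 past limma's adjusted test and 4 at an unadjusted p under 0.05 (26.3% of all probe sets). Their summed signal ran from 11827 to 27879 in control arrays and 22459 to 29993 in food arrays. Choroid plexus and ependyma markers were above control in 9 of 11 cases (median 0.49), and hypothalamic markers below it in 4 of 4 (median -2.79, 3 past limma's adjusted test, as were 3.76% of all probe sets in that direction). With the array set as a term, oligodendrocyte and myelin markers were above 0 in 12 of 23 cases (median 0.014). Choroid plexus and ependyma markers were then above 0 in 0 of 11 cases (median -0.96) and hypothalamic markers in 0 of 4 (median -0.10). Of these 3 lists 0 markers passed limma's adjusted test with the term (0% of all probe sets). Without the term, astrocyte markers were above control in 10 of 14 cases (median 0.12). Endothelial and mural markers were above it in 10 of 14 (median 0.11). Of each list 2 passed as higher (4.77% of all probe sets). Neuron markers were above control in 12 of 19 cases (median 0.092), and microglia and macrophage markers in 9 of 14 (median 0.031). SFO markers were above it in 2 of 6. Of these last 3 lists 0 passed. The part of these cell types in the result was not tested.

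After water deprivation most genes also lay below control, but this comparison and that of food deprivation share the same 5 control arrays. Of 33 genes, 25 were below control with a median of -0.08, against 49.5% and 0.0023 for all probe sets, and the range ran from -0.37 for Dhcr7 to 0.26 for Insig2. The 95% interval lay within 1.5-fold for 26 genes (72.3% of all probe sets). Groups did not overlap for 1 gene, Insig2 (0.741% of all). Below 0 were 3 of 4 regulators, 5 of 6 mevalonate genes, 8 of 11 sterol genes, 5 of 5 fatty acid synthesis genes and 3 of 6 elongation and desaturation genes. Without control 2, which was the highest control for 22 of 33 genes, 20 of 33 genes were below 0 with a median of -0.02.

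Insig2, which anchors the SREBP-Scap complex in the endoplasmic reticulum, was the gene whose water arrays stood clear. Its log2 values were 7.80, 7.69, 7.83, 7.88 and 7.97 in control arrays, 8.04, 8.07, 8.12, 8.17 and 8.08 in water arrays, and 7.80, 7.86, 7.85, 7.90 and 7.81 in food arrays. Every water array lay above every control and every food array, and the food arrays lay within the control range. The mean was 7.83 ± 0.10 in control, 8.10 ± 0.051 in water and 7.84 ± 0.044 in food arrays (SD, n = 5). Water deprivation was 1.20-fold higher than control (0.26, SE 0.076, 95% interval 0.10 to 0.43, 5 of 5 arrays above the control mean), with an unadjusted limma p of 0.00307 and an adjusted p of 0.616. Food against water deprivation was -0.25 (SE 0.076), with a limma adjusted p of 0.13. With the array set as a term the water difference was 0.29 (SE 0.082), and high and low water arrays differed by -0.07 (SE 0.10). A dimmer Insig2 probe set was 0.36 above control in water arrays (SE 0.15) and 0.12 above with the set as a term (SE 0.12, limma adjusted p = 0.942). Its values were 6.21, 5.97, 6.27, 6.10 and 6.06 in control arrays and 6.90, 6.77, 5.92, 6.31 and 6.49 in water arrays, with water arrays 1 and 2 highest and water 3 below every control array.

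Mvk and Acat2 were the other genes at an unadjusted p under 0.05 in the water comparison. Mvk was 0.32 lower (-0.32, SE 0.12, limma adjusted p = 0.719), its dimmer probe set again going the other way by 0.34. Acat2 was 7.64, 8.01, 7.58, 7.69 and 7.34 in control arrays, 7.53, 7.14, 7.44, 7.55 and 7.28 in water arrays and 7.39, 7.19, 7.48, 7.57 and 7.44 in food arrays. The groups overlapped through control 5, and the water difference was -0.27 (SE 0.12, limma adjusted p = 0.752), or -0.18 without control 2. Oligodendrocyte and myelin markers were below control in 20 of 23 cases (median -0.27) and microglia and macrophage markers in 13 of 14 (median -0.24). Of both lists 0 passed limma's adjusted test, and 0 of 23 and 6 of 14 had an unadjusted p under 0.05 (6.5% of all probe sets). SFO markers were above control in 4 of 6 cases (median 0.59), with 0 past the adjusted test and 4 at an unadjusted p under 0.05. With the array set as a term 5 of 6 were above 0 (median 0.98), 1 of them past the adjusted test (0.0276% of all probe sets). Without the term, choroid plexus and ependyma markers were above control in 10 of 11 cases (median 0.39). Hypothalamic markers were below it in 4 of 4 (median -0.70). Astrocyte markers were below control in 9 of 14 cases and neuron markers in 12 of 19. Endothelial and mural markers were below it in 7 of 14. Of these lists 0 markers passed the adjusted test. The part of all these markers in the result was not tested.

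**Figure D3:**
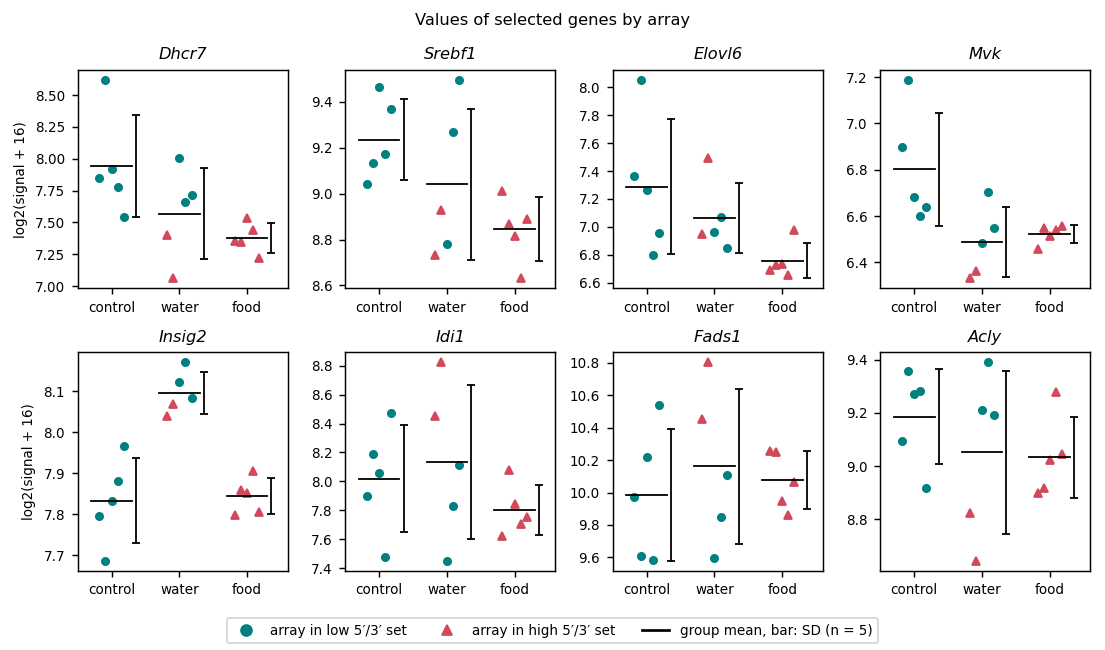
Log2(signal + 16) of 8 genes in every array, circles for the low and triangles for the high 5′/3′ set, with group means (lines) and SD (bars, n = 5). Insig2 water values sit above both other groups, Dhcr7, Srebf1 and Mvk food values sit below control, and in Idi1, Fads1 and Acly the triangles and circles of the water group separate.

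Food against water deprivation showed 20 of 33 genes below 0, with a median of -0.06 and a range of -0.33 for Idi1 to 0.12 for Elovl2. All probe sets had 42.4% below 0 and a median of 0.042. Median centring put 32 of 33 genes below 0 and moved all probe sets by -0.093, and quantile normalization put 19 below 0. Measured against the median of all probe sets, 24 genes were lower with the deposited scaling or median centring, which shifts all genes alike, and 20 with quantile normalization. The interval lay within 1.5-fold for 27 genes (65.2% of all probe sets), and groups did not overlap for 1 gene, Insig2 (3.52% of all). This comparison shares its arrays with the other comparisons, so its values add no separate sample.

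The water-deprived arrays fell into both 5′/3′ sets. Between water arrays 1 and 2 (high 5′/3′ set) and water arrays 3 to 5 (low set), 4 of 33 genes passed limma's test with the set as a term (15.9% of all probe sets), 2 higher (9.49% of all) and 2 lower (6.44% of all) in the high set. At an unadjusted p under 0.05 were 6 genes (31.5% of all). Idi1, the isopentenyl pyrophosphate isomerase, was 7.90, 8.19, 8.06, 7.48 and 8.47 in control arrays, 8.45, 8.82, 7.45, 7.83 and 8.11 in water arrays and 7.63, 8.08, 7.84, 7.71 and 7.76 in food arrays. Fads1, a fatty acid desaturase, was 9.97, 9.61, 10.22, 9.59 and 10.54 in control arrays, 10.46, 10.80, 9.60, 9.85 and 10.11 in water arrays and 10.26, 10.25, 9.95, 9.86 and 10.06 in food arrays. Both genes were highest in water arrays 1 and 2 and in control 5, and low in control 4 and water 3.

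Idi1 was higher in the high set by 0.84 (SE 0.25, limma adjusted p = 0.0328) and Fads1 by 0.78 (SE 0.25, limma adjusted p = 0.0438). Acly, ATP citrate lyase, was 9.10, 9.36, 9.27, 9.28 and 8.92 in control arrays, 8.82, 8.64, 9.21, 9.39 and 9.19 in water arrays and 8.90, 8.92, 9.02, 9.28 and 9.05 in food arrays, lower in the high set by 0.53 (-0.53, SE 0.14, limma adjusted p = 0.023). Srebf2 was lower by 0.48 (-0.48, SE 0.14, limma adjusted p = 0.0308). Water arrays 1 and 2 held the lowest Acly and Srebf2 values of their group. These calls rest on few arrays: 0 genes passed without water 1, without water 2 or without water 4, and 2 without water 3.

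Choroid plexus and ependyma markers differed with this split, 11 of 11 above 0 in the high set with a median difference of 1.58. Of these 1 passed limma's adjusted test (9.49% of all probe sets in that direction). Hypothalamic markers differed the other way, 4 of 4 below 0 with a median of -2.69 and 3 past the test (6.44% of all probe sets in that direction). SFO markers were also lower in the high set, 6 of 6 below 0 with a median of -0.98 and 3 past the test. All 6 had an unadjusted p under 0.05 (31.5% of all probe sets). Neuron markers were below 0 in 13 of 19 cases (median -0.13), with 4 lower and 1 higher past the test. Astrocyte markers were below 0 in 9 of 14 cases, with 1 past the test. Oligodendrocyte and myelin markers were above 0 in 18 of 23 (median 0.40), with 0 past it. Microglia and macrophage markers were above 0 in 7 of 14, with 2 lower past it. Endothelial and mural markers were above 0 in 7 of 14, with 0 past it. Of the choroid plexus markers, Ttr ran from 10.9 to 12.7 over all arrays. Within the water arrays Kl ran from 4.18 to 9.01, Aqp1 from 4.41 to 9.80, Kcne2 from 4.62 to 10.66 and Sostdc1 from 5.99 to 12.13, so that several were near the floor in some arrays. The part of these tissues in the Idi1, Fads1, Acly and Srebf2 differences was not tested.

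With the set as a term, the comparisons between groups again had 0 of 33 genes past limma's adjusted test: water against control (0.0276% of all probe sets passed; 1 gene, and 5.96% of all, at an unadjusted p under 0.05), food against control (0% passed; 5 genes, 8.65% of all) and food against water (0% passed; 5 genes, 10% of all). The food differences were below 0 for 23 of 33 genes (53.3% of all probe sets) and spread over a wider range, from -1.06 for Idi1 (SE 0.30, limma adjusted p = 0.485) to 0.43, and 12 of 33 intervals lay within 1.5-fold (30.3% of all probe sets). Srebf2 was -0.08 without the term and 0.40 with it (95% interval 0.040 to 0.77), and Acly was -0.15 and 0.38. Mevalonate genes had 4 of 6 below 0 with a median of -0.10, sterol genes 9 of 11 with a median of -0.08 and fatty acid synthesis genes 3 of 5 with a median of -0.01. Elongation and desaturation genes had 4 of 6 below 0 with a median of -0.35, so the order of the roles differed from that without the term.

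**Figure D4:**
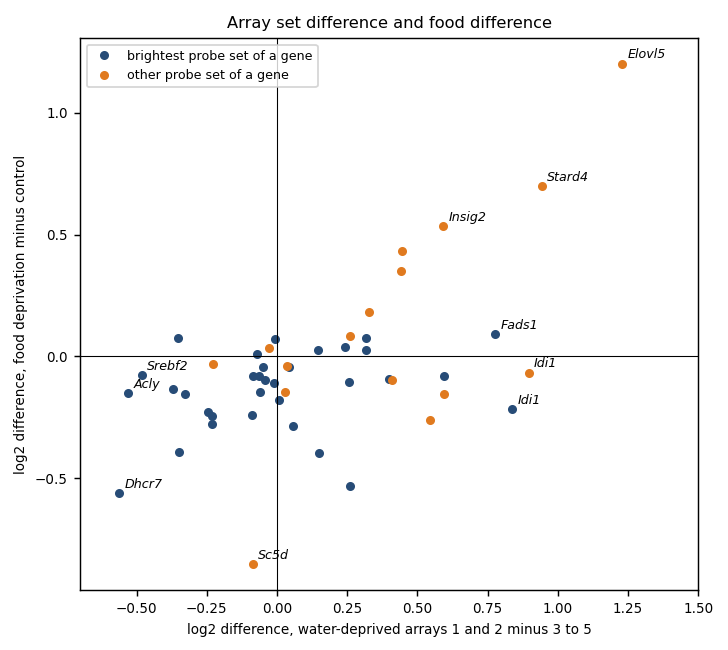
Each point is 1 of 49 tested probe sets, with the log2 difference of water arrays 1 and 2 minus 3 to 5 across and food deprivation minus control upward. Elovl5, Stard4 and Insig2 lie far up and right through their dimmer probe sets, Dhcr7 lies low and left, and Idi1 and Fads1 lie right, with food differences of -0.22 and 0.092.

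No array is shared by the split of the water arrays and the food comparison, and over all 21729 probe sets 74.5% had the same sign in both, with a Pearson r of 0.698 across probe sets. For the brightest probe sets of the 33 genes, 21 had the same sign and r was 0.28. For the 16 other tested probe sets, 9 had the same sign and r was 0.67. Probe sets are not independent replicates, and the arrays share their 5′/3′ difference.

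The dimmer probe sets gave results that the brightest ones did not. Of 16 other probe sets past the filter, 4 passed the test for food against control (8.53% of all), 3 higher (4.77% of all) and 1 lower (3.76% of all). The second probe set of Elovl5, an elongase of polyunsaturated fatty acids, was 5.37, 5.20, 5.97, 5.68 and 5.40 in control arrays, 6.49, 6.47, 5.39, 4.84 and 5.52 in water arrays, and 6.68, 6.77, 6.73, 6.93 and 6.52 in food arrays. Food arrays and water arrays 1 and 2 were high, and control arrays and water arrays 3 to 5 were low. It rose by 1.20 after food deprivation (SE 0.26, limma adjusted p = 0.0135), and differed by -0.03 with the array set as a term, while the brightest Elovl5 probe set was -0.08.

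Stard4 had a probe set at 0.70 (SE 0.20, limma adjusted p = 0.0453) and Insig2 at 0.53 (SE 0.15, limma adjusted p = 0.0391), which were -0.24 and -0.06 with the set as a term. Of these, Elovl5, Stard4 and Insig2 also passed between the high and low water arrays, at 1.23, 0.94 and 0.59. The Stard4 probe set was 5.00, 5.03, 4.74, 5.38 and 5.23 in control arrays. It was 6.13, 6.20, 5.19, 5.41 and 5.07 in water arrays and 5.75, 5.82, 5.77, 5.92 and 5.62 in food arrays. Control arrays 1 to 3 lay under the filter cut of 5.11, so this probe set passed the filter through its higher arrays. The Insig2 probe set was 6.65, 6.67, 6.61, 6.57 and 6.78 in food arrays. Sc5d, the desaturase of the last sterol steps, had a probe set at -0.85 (SE 0.24, limma adjusted p = 0.0411), with 7.67, 7.59, 6.92, 6.96 and 6.81 in control arrays and 5.96, 6.06, 6.46, 6.06 and 7.14 in food arrays, of which food 5 alone lay within the control range. With the set as a term it was -0.77 (SE 0.43, limma adjusted p = 0.628). Its brightest probe set was -0.14. The Elovl5 call held with each of the 15 arrays left out in turn. The Insig2 call was lost without any single control or food array, that of Stard4 without any of these but control 4, and that of Sc5d without any of these but control 5 and food 5, and without water 5. The limma adjusted p-values then ran up to 0.104.

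Among the control arrays, control 2 stood apart for these genes. It had the highest control value for 22 of 33 genes, where it was highest for 27% of all probe sets, and 26 of 33 genes were above their control mean there. The median deviation from the control mean was 0.28 for the 33 genes and -0.01 for all probe sets. By role it was 0.45 for elongation and desaturation, 0.35 for mevalonate steps, 0.28 for sterol steps, 0.25 for fatty acid synthesis and -0.02 for regulators. In the same array oligodendrocyte and myelin markers deviated by a median of 1.20, neuron markers by 0.47, astrocyte markers by 0.39 and choroid plexus and ependyma markers by -2.05, and their part in the result was not tested.

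Control 5 was the highest control for 7 genes (28.3% of all probe sets): Insig2, Idi1, Sqle, Hsd17b7, Ebp, Fads1 and Fads2. It was the lowest for 13 others (28.7% of all). There choroid plexus and ependyma markers deviated by 1.60, oligodendrocyte and myelin markers by -0.93 and neuron markers by -0.75. Fads2, a desaturase, ran from 6.13 in control 2 to 7.43 in control 5, and Elovl2, an elongase, from 6.67 in control 5 to 8.26 in control 2, so that genes of one role stood in opposite order over these arrays. Without control 2, food against control had 24 of 33 genes below 0 with a median of -0.06, and water against control 20 of 33 with a median of -0.02. Over all probe sets the shares below 0 were then 44.1% and 49.9%. The 33 genes had 0 past limma's adjusted test in both comparisons (7% of all probe sets for food and 0.0092% for water), with smallest adjusted p-values of 0.0973 and 0.704.

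**Figure D5:**
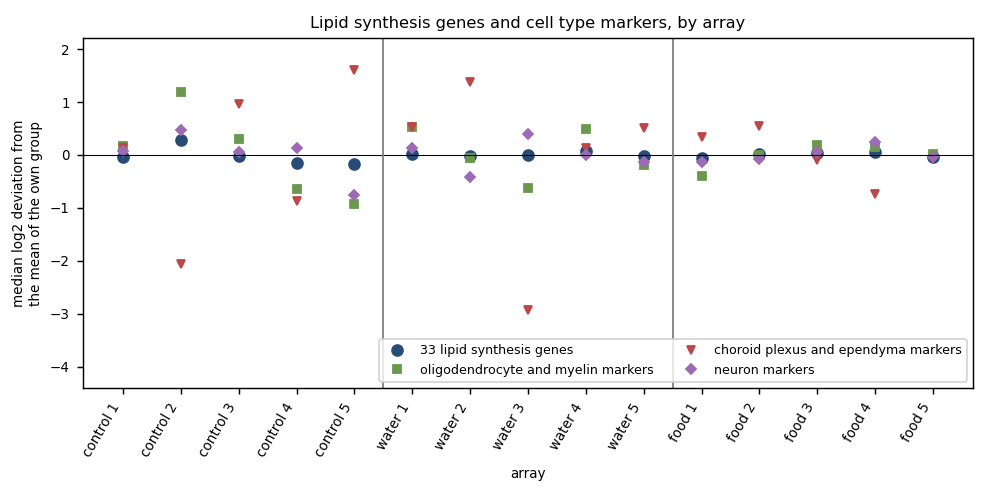
For each array, the median log2 deviation from the mean of its own group is shown for the 33 genes and for 3 lists of cell type markers. The 33 genes run from -0.16 in control 5 to 0.28 in control 2, while choroid plexus and ependyma markers range from -2.93 in water 3 to 1.60 in control 5.

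Other genes of the SREBP pathway, from a list of 38, were measured in 29 cases and tested in 27. In food against control 1 of 27 passed (8.53% of all probe sets), and it was lower (3.76% of all). Scap, the SREBP escort, was 7.24 in food arrays and 7.89 in control arrays (-0.65, SE 0.19, limma adjusted p = 0.0463). The call was lost without any single control or food array or water 5, at limma adjusted p-values from 0.0551 to 0.103, and the difference was 0.14 with the set as a term. Another tested Scap probe set was at -0.245 in food against control. The list's median was 0.0012 for food and 0.012 for water against control. In water against control 0 of 27 passed limma's adjusted test and 0 had an unadjusted p under 0.05 (6.5% of all). In food against water deprivation 0 of 27 passed and 3 had an unadjusted p under 0.05 (15.8% of all probe sets): Mlxipl, a sugar-responsive activator of lipid synthesis, at 0.47 (SE 0.13, limma adjusted p = 0.12), Scd2, a brain stearoyl-CoA desaturase, at 0.42 (SE 0.17, limma adjusted p = 0.24), and Tmem97 at 0.35 (SE 0.16). With the set as a term the Scd2 probe set at 0.42 was 0.016. The other tested Scd2 probe sets all lay further above 0 than 0.42 in food against water deprivation. Their values with the set as a term are not given here.

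In the list of sterol transport and turnover, 28 of 30 genes were tested and 2 passed in food against control (8.53% of all probe sets), both higher (4.77% of all). Apod, a lipid-binding apolipoprotein of glia, rose by 0.65 (SE 0.17, limma adjusted p = 0.0316), and Apoe, which carries cholesterol from astrocytes to neurons, by 0.30 (SE 0.090, limma adjusted p = 0.0463). With quantile normalization Apoe was -0.06, and with the set as a term Apod was 0.30 and Apoe 0.31, neither past the test. The Apod call was lost without any single control array but control 2 and any single food array but food 1. The Apoe call was lost without any single control or food array and without water 4 or 5. The medians of the list were 0.041 for food and 0.0067 for water against control, and in the latter 0 of 28 passed limma's adjusted test and 2 had an unadjusted p under 0.05 (6.5% of all probe sets), namely Abca2, a transporter of oligodendrocytes, at -0.54 (SE 0.21), and Lcat, which esterifies cholesterol on lipoproteins, at -0.34 (SE 0.13).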

How the data were processed

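Arrays of rat SFO RNA were compared, 5 pools of 5 animals per group. The authors deposited a linear signal intensity per probe set, made with GCOS 1.2 per the submitters' processing notes, whose role is not stated there. Tested on the table, every array had the same trimmed mean (2% trimmed at each end) of 100.0. The labels' protocols give RNAlater storage, QIAzol and column purification, and 1 biotin-labelled amplification. Arrays give no counts, so their number limits the precision.

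Values were used as log2(signal + 16). Dim probe sets, with a 15-array mean at or under log2 5.11 (the 30th percentile), were not tested, which left 21729. The annotation gives 1 gene symbol to 20826 probe sets, several to 436 and none to 9780. All 33 gene identifiers matched the RefSeq table. R 4.3.3 and limma 3.58.1 fitted the 3 groups together (12 residual degrees of freedom, 11 with the array set), with a variance trend, two-sided tests and Benjamini-Hochberg adjustment over all probe sets tested. Figures used Python 3.11.15 and matplotlib 3.10.9. The fit was tested on simulated data.

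The genes, lists, tests, array-set split and alternatives were chosen with earlier results of these data known. Per-array values are given for regulators and for genes that passed a test; others named with them were chosen after their values were seen. From other pathway lists, up to 4 members that passed, or else had the smallest p, are named. Alternatives were median centring, quantile normalization, an offset of 1 or 64, no filter or one at the 50th percentile, no variance trend, array weights, a replicate block, a term for the array set or for the 5′/3′ ratio, only the groups compared, the mean of a gene's probe sets, and leaving out each array. Replicate numbers were not taken to pair arrays, since same-numbered arrays did not all deviate together.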

Additional observations from a re-analysis of the deposited data

Results flagged for a closer look

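In 3 of 99 groups of 5 arrays (33 genes in 3 groups), 1 array lay far from the others of its group by Dixon's criterion, and chance gives about 1 in 20. Sqle was lowest in water 3, at a log2 value of 8.1414 with the nearest other water array at 8.518. Water 3 was also the array with the lowest 5′/3′ ratio, at -2.81 on the log2 scale. Elovl5 (brightest probe set) was highest in control 2, at 10.2819 with the nearest other control at 9.929. Elovl6 was highest in food 5, at 6.976 with the nearest other food array at 6.7346.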

How the results depend on the processing

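In water against control, 0 of 33 genes passed under each of the 13 other settings and with each array left out. In food against control, 0 passed in the report's fit, 2 with median centring (Sqle and Elovl6), 5 with array weights (Srebf1, Mvk, Dhcr7, Acaca and Elovl6), 2 with only the 2 groups compared (Srebf1 and Dhcr7) and 1 with the mean of a gene's probe sets, and 0 to 1 with 1 array left out. The genes called with the first 3 of these settings were lower, and Elovl5, called with the mean of its probe sets, was higher, at 0.56 against -0.082. In food against water deprivation 2 of 33 genes passed with array weights (Srebf1 and Insig2, both lower). Over all 21729 probe sets, 2744 passed in that comparison with array weights, against 33 in the report's fit. The 4 genes that differed between high and low water arrays became 2 with quantile normalization and 0 to 5 with 1 array left out. Median differences stayed below 0 in all 3 comparisons with each array left out: -0.13 to -0.061 for food against control, -0.12 to -0.023 for water against control and -0.083 to -0.028 for food against water. Called values that changed sign in food against control were Apoe with quantile normalization (-0.056), and with the array set as a term Scap (0.14) and the dimmer probe sets of Elovl5 (-0.027), Insig2 (-0.058) and Stard4 (-0.24). With the replicate number as a block 0 of 33 genes passed in every comparison, and over all probe sets 0, 1254 and 20 passed for water against control, food against control and food against water, against 1, 1854 and 33 without it. The count for food against control over all probe sets was 0 with the array set as a term and 139 with the 5′/3′ ratio. It was 1830 with median centring, 5840 with array weights and 4183 with only the 2 groups compared. With the mean of a gene's probe sets 645 passed, but that setting averages probe sets, so its count is not over the same probe sets. The cause of these changes was not tested. The standard errors of the 33 food differences ran from 0.076 to 0.26.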
